A study of Homo sapiens with 36 samples.

Results

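Genes for the folding, degradation and translocation of proteins at the endoplasmic reticulum (ER) were followed in human HMC3 cells exposed to perfluorooctane sulfonate (PFOS) and then left to recover. The 39 genes are a list set by symbol and were found in the table of 25344 gene symbols, 38 under the listed symbol and 1 (ERO1B) under its older symbol ERO1LB. They form 5 classes: 10 chaperones and folding factors, 7 genes of disulfide formation, 4 sensors and regulators of the unfolded protein response, 9 genes of ER-associated degradation (ERAD), and 9 genes of the translocon, the channel through which new proteins enter the ER.

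Secreted and membrane proteins enter the ER through the SEC61 channel, fold there with chaperones and disulfide isomerases, and are sent back to the cytosol for destruction by the proteasome when folding fails. When unfolded proteins accumulate, the sensors ATF6, IRE1 (encoded by ERN1) and PERK (encoded by EIF2AK3) start the unfolded protein response. ATF6 and XBP1, the transcription factor made active when IRE1 splices its mRNA, raise chaperone and ERAD genes, while PERK slows translation and raises ATF4 and CHOP. In microglia, the resident macrophages of the brain, this response is studied for its ties to secretion and inflammatory signalling.

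HMC3 is an established human microglial line, and PFOS is a persistent perfluorinated surfactant. After 24 h of exposure, cells were sampled with vehicle, with 25 µM PFOS or with 50 µM PFOS, and other cells of each treatment were given PFOS-free medium and sampled 24 h later, which is called recovery here. There were 3 RNA-seq libraries per group and 18 in all. The vehicle is not named in the labels, and the cells carry no stated genetic change. The series also holds 18 H3K27ac CUT&Tag libraries, which were not analysed here. The labels call the libraries biological replicates but do not say whether they came from separate cultures, so p-values measure only the spread between these libraries.

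Total counts per library ranged from 582233 to 4346627, and levels are given in CPM, the count scaled to a common library size by the TMM method. For the cell type markers of this paragraph, CPM is scaled to the total count of each library instead. Of 15 microglia and macrophage markers, 5 (AIF1, C1QA, C1QB, CX3CR1 and TYROBP) were at 0 in every library, whereas 10 of 11 fibroblast and mesenchymal markers averaged over 5 CPM. The 3 libraries of recovery after 50 µM PFOS stood apart in 1 measure. Transcripts of 86 ribosomal protein genes took 2.94%, 7.58% and 5.03% of their counts, against 1.21% to 2.43% in the other 15 libraries. Their summed level of mesenchymal markers was 3493 to 13027 CPM, which overlapped 12596 to 17787 CPM in vehicle recovery libraries. FN1 was the largest part, at 10295, 2393 and 5723 CPM, against 14036, 9567 and 12738 CPM in vehicle recovery libraries. The markers did not move alike, since VIM was at 657, 511 and 644 CPM, against 481, 509 and 602 CPM. Every result below that rests on these libraries also holds the difference in ribosomal protein share, whose part was not tested.

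After 24 h of 50 µM PFOS, genes of all 5 classes were higher, most of all the BiP co-chaperone DNAJB9, the ERAD scaffold HERPUD1 and the chaperone HSPA5 itself. By edgeR's quasi-likelihood test, with p-values adjusted over 9847 genes and a threshold of 0.05, 19 of the 38 tested members (50%) rose and 0 fell. Over all genes tested, 9.18% rose and 9.59% fell. The count of members lower was also 0 at an unadjusted p under 0.05 and in DESeq2, which called 20 members higher. The median log2 fold change was 0.59 over the members and 0.01 over all genes. In 31 members (81.6%) no 50 µM library overlapped a vehicle library, against 41.4% of all genes. Together the 39 genes took 2.32%, 2.10% and 2.43% of all counts at 50 µM, against 1.16%, 1.35% and 1.28% in vehicle. The ribosomal protein share also differed between these groups, at 1.85% to 2.43% against 1.34% to 1.47%, and its part in the result was not tested. In bulk RNA, a change in how many cells express a gene and a change in its level per cell cannot be told apart.

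**Figure D1:**
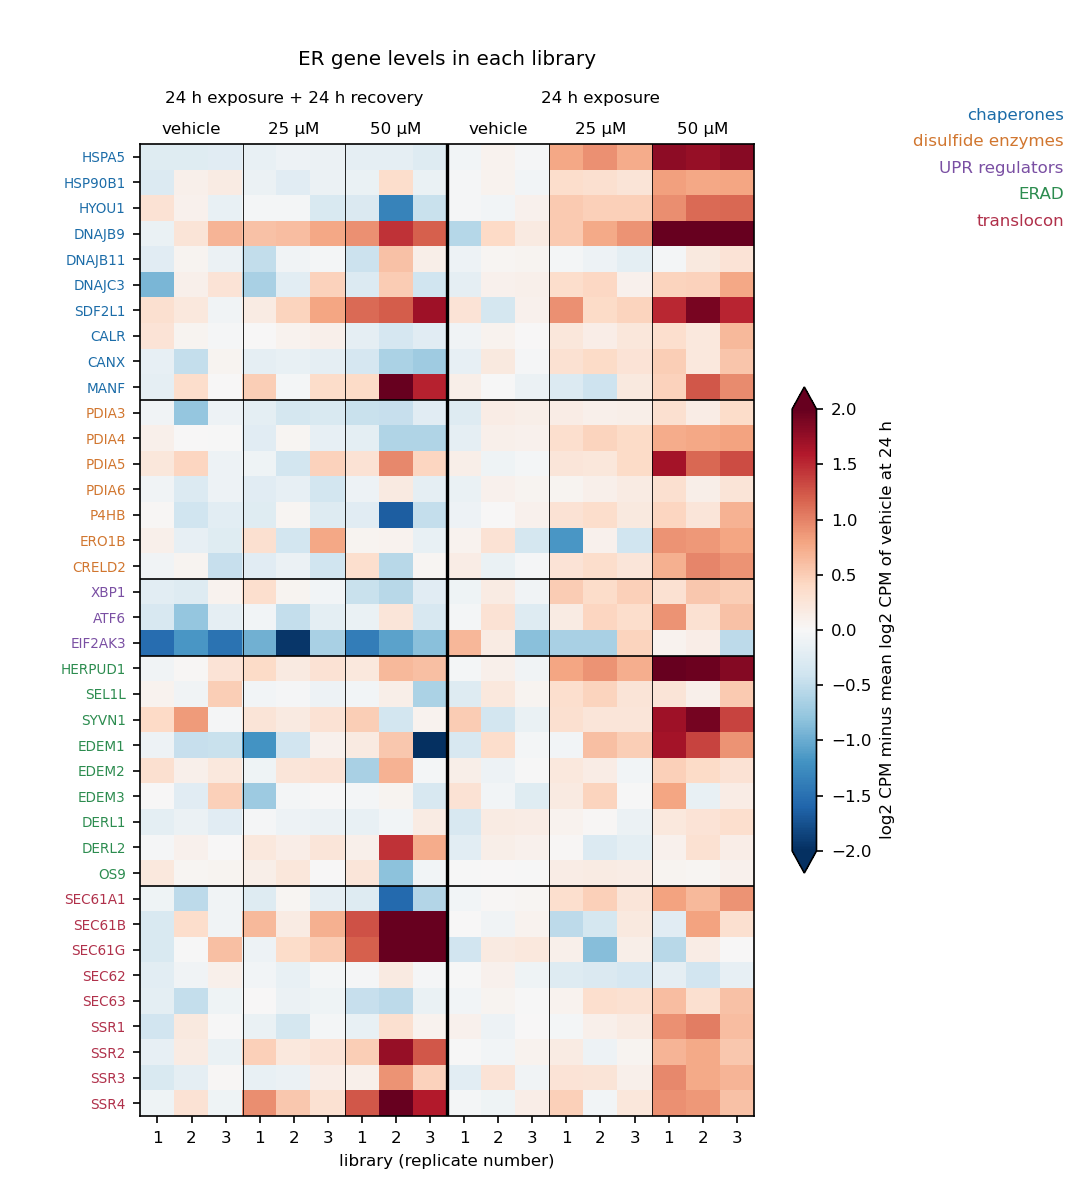
Level of each tested member in each of the 18 libraries, as the log2 CPM minus the mean log2 CPM of the vehicle libraries at 24 h (colour scale, red higher, blue lower), with recovery libraries on the left, 24 h libraries on the right, and rows ordered by class. The 3 libraries of 50 µM PFOS at 24 h are red in most rows, with DNAJB9, HSPA5, HERPUD1, SDF2L1 and SYVN1 strongest, and after recovery the red is mostly in SEC61B, SEC61G, SSR2, SSR4, MANF and SDF2L1.

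Of the 10 chaperones and folding factors, 6 rose at 50 µM, with a class median of 0.89 on the log2 scale. Here and below, differences written with ± and no CPM are log2 fold changes with their SE. DNAJB9 (ERdj4), a J-domain partner of the Hsp70 chaperone BiP that also restrains IRE1, lies at chr7:108569874-108574850 (GRCh38) and was at 18.8, 37.8 and 32.7 CPM in vehicle libraries, 41.8, 49.1 and 54.1 CPM at 25 µM and 151, 157 and 137 CPM at 50 µM. Every 50 µM library was far above the other 24 h libraries and the 25 µM libraries lay just above vehicle, with no overlap. The log2 fold change at 50 µM was 2.23 ± 0.22 (SE, n = 3 libraries a group, adjusted p = 2.43e-07), the largest increase among the members.

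HSPA5 (chr9:125234853-125241343) encodes BiP, the main Hsp70 of the ER lumen, which also holds the sensors inactive. It was at 1742, 1910.4 and 1793 CPM in vehicle libraries, 3094, 3422 and 3038 CPM at 25 µM and 6272, 6075 and 6404 CPM at 50 µM. The groups were fully separated and ordered with dose, and the 50 µM mean of 6250.3 ± 165 CPM stood against 1815 ± 86.4 CPM in vehicle (SD, n = 3 each). The log2 fold change was 1.78 ± 0.11 at 50 µM (adjusted p = 5.24e-10). At 50 µM, HSPA5 alone took 0.577% to 0.650% of all counts, against 0.168% to 0.193% in vehicle.

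SDF2L1, a small ER protein that works with J-domain partners of BiP, was at 19.99, 12.6 and 17.4 CPM in vehicle libraries, 31.7, 21.6 and 22.6 CPM at 25 µM and 48.6, 63.8 and 48.9 CPM at 50 µM. All 50 µM libraries were above all 25 µM libraries, and these above vehicle, and the gene rose by 1.73 ± 0.24 at 50 µM (adjusted p = 1.86e-05). HYOU1 (GRP170), the nucleotide exchange factor that resets BiP, was at 279, 272 and 300.1 CPM in vehicle libraries, 409.8, 394 and 396 CPM at 25 µM and 543, 619.6 and 629 CPM at 50 µM. Its groups were also separated and ordered with dose, with a rise of 1.07 ± 0.19 (adjusted p = 0.000291).

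MANF, an ER-resident factor that binds BiP and is secreted under stress, was at 15.3, 14.1 and 12.96 CPM in vehicle libraries, 11.5, 10.3 and 16.4 CPM at 25 µM and 19.7, 34.6 and 28.04 CPM at 50 µM. The 50 µM libraries were above the other 24 h libraries but spread widely, and the difference of 0.99 ± 0.39 did not pass (adjusted p = 0.0853). HSP90B1 (GRP94), the Hsp90 of the ER, rose by 0.79 ± 0.14 (adjusted p = 0.000393). Of the lectin chaperones, which hold glycoproteins until they fold, the soluble CALR rose by 0.41 ± 0.13 (adjusted p = 0.0334). Its membrane-bound relative CANX was at 1284, 1646 and 1425 CPM in vehicle libraries, 1784, 1876 and 1737 CPM at 25 µM and 2042, 1663 and 2115 CPM at 50 µM. The CANX groups did not overlap between 50 µM and vehicle, but the difference of 0.42 ± 0.15 missed the threshold (adjusted p = 0.0536). The other J-domain partners DNAJC3 and DNAJB11 were at 0.57 ± 0.28 and 0.15 ± 0.19 and did not pass.

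The promoters of 6 members are shown because several members with large increases hold 1 of 2 related short elements, and others hold neither. The ER stress element (ERSE) is bound by ATF6 together with the CCAAT-binding factor NF-Y, and its letters are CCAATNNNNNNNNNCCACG. A second form, ERSE-II, reads ATTGG, the CCAAT box on the other strand, then any base, then CCACG. Both were searched on both strands in RefSeq promoters of GRCh38.p14, in windows of 300 bases that run from 250 bases before each annotated start to 50 after it. Promoters were found for 37 of the 39 members. The 5 called members with the largest increases among those that hold an element are printed with SSR1, the translocon gene with the largest increase, which holds neither. The 250 bases before the start are given 5′ to 3′ on the gene's strand, and capitals mark the ERSE or ERSE-II match, written as its reverse complement where it lies on the opposite strand.
HERPUD1, chr16:56931892-56932141, plus strand: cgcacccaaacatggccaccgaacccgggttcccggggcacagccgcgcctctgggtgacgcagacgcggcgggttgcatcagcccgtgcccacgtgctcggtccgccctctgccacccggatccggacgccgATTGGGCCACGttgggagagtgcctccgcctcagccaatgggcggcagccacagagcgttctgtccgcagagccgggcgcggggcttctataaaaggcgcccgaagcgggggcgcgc
HSPA5, chr9:125241344-125241593, minus strand: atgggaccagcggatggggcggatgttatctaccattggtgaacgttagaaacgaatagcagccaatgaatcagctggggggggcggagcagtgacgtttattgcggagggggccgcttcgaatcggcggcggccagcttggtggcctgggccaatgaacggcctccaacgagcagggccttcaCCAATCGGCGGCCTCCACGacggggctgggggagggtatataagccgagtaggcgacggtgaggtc
SDF2L1, chr22:21642052-21642301, plus strand: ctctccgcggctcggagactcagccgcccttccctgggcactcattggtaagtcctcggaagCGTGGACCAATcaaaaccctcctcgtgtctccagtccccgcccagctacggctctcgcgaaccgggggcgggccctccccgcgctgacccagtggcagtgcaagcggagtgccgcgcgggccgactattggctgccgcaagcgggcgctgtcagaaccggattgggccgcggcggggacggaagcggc
HYOU1, chr11:119057206-119057455, minus strand: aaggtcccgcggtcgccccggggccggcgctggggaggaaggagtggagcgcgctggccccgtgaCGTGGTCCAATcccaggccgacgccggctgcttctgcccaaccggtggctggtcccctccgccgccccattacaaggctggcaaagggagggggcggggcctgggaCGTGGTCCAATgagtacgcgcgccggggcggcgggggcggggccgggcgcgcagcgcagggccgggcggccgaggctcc
CRELD2, chr22:49918384-49918633, plus strand: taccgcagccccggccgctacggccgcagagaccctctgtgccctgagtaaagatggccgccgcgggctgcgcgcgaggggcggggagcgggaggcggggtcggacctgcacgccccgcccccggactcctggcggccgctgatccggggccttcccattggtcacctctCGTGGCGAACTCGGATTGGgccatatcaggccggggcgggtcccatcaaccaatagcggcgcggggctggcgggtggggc
SSR1, chr6:7313200-7313449, minus strand: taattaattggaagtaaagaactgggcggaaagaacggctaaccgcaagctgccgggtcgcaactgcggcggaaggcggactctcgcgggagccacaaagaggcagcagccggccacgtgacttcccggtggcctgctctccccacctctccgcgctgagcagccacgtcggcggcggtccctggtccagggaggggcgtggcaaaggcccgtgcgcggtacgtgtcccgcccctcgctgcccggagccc

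HSPA5 held an ERSE on the gene's strand that began 66 bases before the start, and CRELD2 an ERSE on the opposite strand at 80 bases. HERPUD1 held an ERSE-II on the gene's strand at 117 bases, SDF2L1 an ERSE-II on the opposite strand at 188 bases, and HYOU1 held 2 of these, at 185 and 79 bases. An ERSE was in 7 of 37 member promoters (18.9%), against 22 of all 27305 promoters in the reference (0.0806%) and 14 of 8149 promoters of tested genes (0.172%). ERSE-II was in 3 of 37 member promoters (8.11%), against 15 of 27305 (0.0549%). The members were listed by their role in the ER, and ATF6, which binds ERSE, raises chaperone genes. An excess over all promoters was thus given by the choice of list, and the shares are a description only. With either form counted, the classes differed: 6 of 10 chaperone promoters, 2 of 6 disulfide, 1 of 4 sensor and regulator, 1 of 8 ERAD and 0 of 9 translocon promoters held a match. The bare CCAAT box, which is part of both forms, was in 28 of 37 member promoters (75.7%) and 35.7% of all promoters. The core TGACGTGG of the element read by XBP1 was in 2 member promoters, SEC62 and HYOU1, where it overlaps an ERSE-II, against 0.795% of all promoters. TGATGNAAT, 1 form of the element read by ATF4 with C/EBP factors, was in 0 of 37 member promoters and 1.02% of all. Forms with another last base were not searched, so this count does not show that the members lack such an element. The HERPUD1 promoter printed above holds, on the opposite strand, all of these letters but the last.

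Among the 10 tested members with an ERSE or ERSE-II, 8 rose at 50 µM, with log2 fold changes of 0.41 to 1.93 and a median of 0.91 over the 10. Of the 26 tested members with a promoter but no match, 11 rose and the median was 0.54. The split was not complete, since DNAJB9, with the largest increase, held neither form in this window. The 24 tested genes whose promoters hold a match include 14 outside the list, of which 2 rose and 2 fell. They were FICD, the enzyme that attaches AMP to BiP, at 1.33 ± 0.25 (adjusted p = 0.000786), SERP1, a translocon-associated protein, at 1.17 ± 0.19 (adjusted p = 0.00013), and PLS3 and ZNF143 among the decreases. A match describes letters only, and binding of ATF6 was not measured.

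**Figure D2:**
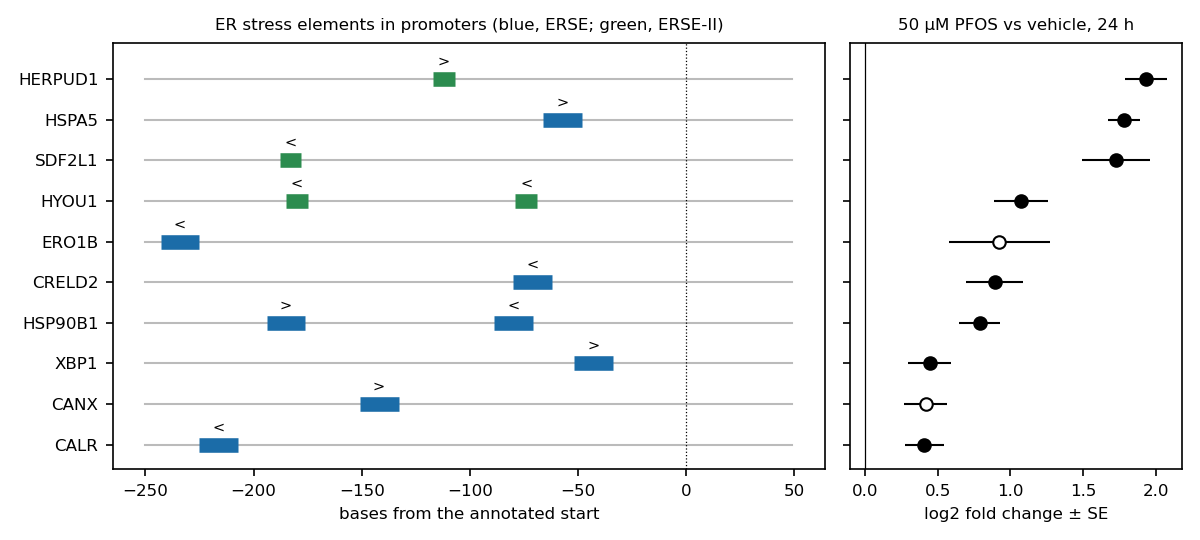
Left, position of each ERSE (blue) and ERSE-II (green) match in bases from the annotated start of the 10 members that hold one, with > for a match on the gene's strand and < for the opposite strand; right, log2 fold change of 50 µM PFOS against vehicle at 24 h with its SE (filled, adjusted p under the threshold). Matches lie between 243 and 34 bases before the start, and the 3 largest increases, HERPUD1, HSPA5 and SDF2L1, have 1 match each.

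Of the 7 genes of disulfide formation, 3 rose at 50 µM, and the class median was 0.77. PDIA5, a protein disulfide isomerase, was at 38.8, 33.9 and 35.04 CPM in vehicle libraries, 42.5, 42.1 and 47.2 CPM at 25 µM and 116, 81.1 and 90.2 CPM at 50 µM. The 50 µM libraries were all far above the other 24 h libraries and 25 µM lay just above vehicle, with no overlap, and the gene rose by 1.43 ± 0.22 (adjusted p = 9.16e-05). CRELD2, a secreted ER stress factor, was at 52.9, 43.2 and 46.8 CPM in vehicle libraries, 57.6, 60.97 and 56.6 CPM at 25 µM and 78.7, 94.1 and 89.2 CPM at 50 µM. Its 3 groups were separated in order of dose, with a rise of 0.89 ± 0.19 at 50 µM (adjusted p = 0.0026). PDIA4 (ERp72) was at 381, 464 and 459 CPM in vehicle libraries, 547, 588 and 567 CPM at 25 µM and 721, 744 and 759.7 CPM at 50 µM, also separated by dose, and rose by 0.77 ± 0.13 (adjusted p = 0.000319).

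ERO1B, the oxidase that recharges the isomerases, was sparse at 8.23, 9.73 and 5.89 CPM in vehicle libraries, 2.88, 8.36 and 5.66 CPM at 25 µM and 15.5, 15.1 and 14.3 CPM at 50 µM. The 50 µM libraries were above every other 24 h library, but the difference from vehicle of 0.93 ± 0.35 did not pass (adjusted p = 0.0666). P4HB, the classical protein disulfide isomerase and a subunit of collagen prolyl hydroxylase, was at 1975, 2134 and 2248 CPM in vehicle libraries, 2587, 2709 and 2431 CPM at 25 µM and 2849, 2499 and 3443 CPM at 50 µM. Both doses lay above vehicle without overlap, yet the 50 µM libraries spread, and 0.47 ± 0.23 did not pass (adjusted p = 0.164). PDIA3 (ERp57), the partner of CALR and CANX, and PDIA6 were at 0.27 ± 0.16 and 0.22 ± 0.13 and did not pass.

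Of the 3 tested sensors and regulators, 1 rose, and counts per gene do not show their activation. XBP1 was at 185, 219 and 186 CPM in vehicle libraries, 278, 254 and 273 CPM at 25 µM and 241, 285 and 277 CPM at 50 µM. Both doses were above vehicle with no overlap, and overlapped each other. The increase was 0.44 ± 0.15 at 50 µM (adjusted p = 0.0374). Splicing of its mRNA is not visible in these counts. ATF6 was at 37.6, 47.2 and 32.1 CPM in vehicle libraries, 43.2, 52.1 and 49.7 CPM at 25 µM and 72.4, 47.6 and 58.1 CPM at 50 µM, with 50 µM above vehicle in every library and a difference of 0.60 ± 0.22 that did not pass (adjusted p = 0.0569). EIF2AK3 was sparse at 17.6, 12.3 and 5.59 CPM in vehicle libraries, 6.48, 6.47 and 15.1 CPM at 25 µM and 11.4, 11.9 and 7.14 CPM at 50 µM, with overlapping groups and -0.12 ± 0.44 (adjusted p = 0.885). ERN1 did not pass the filter on low counts and was not tested. It lay at 0 to 11.9 CPM over the 18 libraries, with 5.17, 11.9 and 6.12 CPM at 50 µM, against 3.53, 2.52 and 3.53 CPM in vehicle at 24 h.

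Of the 9 ERAD genes, 3 rose at 50 µM, and the class median was 0.36. HERPUD1 (chr16:56932142-56944864), a membrane scaffold that gathers the ubiquitin ligase and its partners, was at 169, 187 and 166 CPM in vehicle libraries, 299.6, 325 and 288 CPM at 25 µM and 701, 678 and 622 CPM at 50 µM. The groups were separated and ordered with dose, and the rise at 50 µM was 1.93 ± 0.14 (adjusted p = 5.74e-09). SYVN1 (HRD1), the ligase of the complex, was at 275, 150.3 and 176 CPM in vehicle libraries, 242, 231 and 228 CPM at 25 µM and 633, 733 and 497 CPM at 50 µM. Here 25 µM lay inside the range of vehicle and 50 µM well above both, with a rise of 1.65 ± 0.24 (adjusted p = 3.74e-05). SEL1L, its adaptor, was at 0.29 ± 0.19 and did not pass (adjusted p = 0.305).

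The EDEM proteins trim mannose from glycoproteins and mark them for disposal. EDEM1 was at 7.06, 11.9 and 8.83 CPM in vehicle libraries, 8.64, 14.3 and 13.2 CPM at 25 µM and 31.05, 24.9 and 17.8 CPM at 50 µM. All 50 µM libraries were above the other 24 h libraries, and EDEM1 rose by 1.29 ± 0.36 (adjusted p = 0.014). EDEM2 was at 59.98, 51.5 and 55.1 CPM in vehicle libraries, 64.1, 61.8 and 53.5 CPM at 25 µM and 77.6, 72.5 and 68.3 CPM at 50 µM. EDEM3 was at 28.2, 21.98 and 19.1 CPM in vehicle libraries, 25.9, 31.6 and 22.6 CPM at 25 µM and 40.4, 20.5 and 25.5 CPM at 50 µM. EDEM2 did not overlap between 50 µM and vehicle and EDEM3 did, and neither passed (0.40 ± 0.22, adjusted p = 0.229, and 0.36 ± 0.27, adjusted p = 0.381). DERL2, a membrane protein of the exit channel, was at 75.3, 94.04 and 92.8 CPM in vehicle libraries, 88.6, 72.03 and 75.5 CPM at 25 µM and 92.1, 107 and 95.3 CPM at 50 µM. These groups overlapped vehicle, and 0.15 ± 0.22 did not pass, nor did its relative DERL1 at 0.24 ± 0.14 or OS9, a lectin that delivers substrates, at 0.06 ± 0.18.

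Of the 9 translocon genes, 6 rose at 50 µM, and the class median was 0.67. SEC61A1, the pore itself, was at 896, 945 and 958 CPM in vehicle libraries, 1179, 1301 and 1099 CPM at 25 µM and 1627, 1465 and 1739 CPM at 50 µM. Its groups were separated and ordered with dose, with a rise of 0.79 ± 0.21 (adjusted p = 0.0118). Of the small channel subunits, SEC61B was at 30.6, 28.8 and 32.1 CPM in vehicle libraries, 20.9, 23.7 and 35.2 CPM at 25 µM and 25.9, 54.1 and 38.2 CPM at 50 µM. SEC61G was at 9.41, 14.4 and 14.7 CPM in vehicle libraries, 13.7, 6.47 and 13.8 CPM at 25 µM and 8.28, 14.1 and 12.7 CPM at 50 µM. In both the groups overlapped, and differences of 0.36 ± 0.38 for SEC61B (adjusted p = 0.565) and -0.20 ± 0.51 for SEC61G (adjusted p = 0.834) did not pass. SEC63, which brings BiP to the channel, rose by 0.51 ± 0.15 (adjusted p = 0.0228), while its partner SEC62 was at -0.24 ± 0.13 (adjusted p = 0.194) and lay below vehicle in every 25 µM and 50 µM library.

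SSR1 to SSR4 encode the subunits of the translocon-associated protein complex, which helps chosen signal sequences to enter, and every one rose at 50 µM. SSR1 was at 521, 458 and 496 CPM in vehicle libraries, 479.6, 525 and 547 CPM at 25 µM and 922, 994 and 749.5 CPM at 50 µM. SSR3 was at 273, 382 and 301 CPM in vehicle libraries, 381, 375 and 340.3 CPM at 25 µM and 613, 536 and 507 CPM at 50 µM. In both, 50 µM stood above all other 24 h libraries and 25 µM overlapped vehicle, with rises of 0.85 ± 0.16 (adjusted p = 0.000628) and 0.79 ± 0.18 (adjusted p = 0.00305). SSR2 was at 111, 106 and 116 CPM in vehicle libraries, 125, 103 and 115 CPM at 25 µM and 179, 189 and 162 CPM at 50 µM. SSR4 was at 29.4, 28.5 and 33.3 CPM in vehicle libraries, 42.5, 29.1 and 35.8 CPM at 25 µM and 57.96, 56.2 and 45.9 CPM at 50 µM. These were also above vehicle in every 50 µM library, with rises of 0.67 ± 0.21 (adjusted p = 0.0308) and 0.79 ± 0.24 (adjusted p = 0.0278).

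Of the 19 calls, 13 held in each of 14 alternatives, which changed the scaling, the filter, the tool, the design or the libraries used. The weaker ones were CALR (held in 6 of 14, adjusted p up to 0.215), XBP1 (7, up to 0.215), SSR2 (7, up to 0.113), SSR4 (7, up to 0.113), SEC63 (8, up to 0.109) and EDEM1 (12, up to 0.0752). Leaving out vehicle replicate 3 ended all 6 of these calls, vehicle replicate 1 those of all but EDEM1, and vehicle replicate 2 those of CALR, SEC63, SSR2 and SSR4. Leaving out a 50 µM library ended the calls of all but XBP1 (replicate 1), of XBP1, SSR2 and SSR4 (replicate 2) or of CALR, XBP1 and SEC63 (replicate 3).

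At 25 µM for 24 h, most members lay above vehicle, but few passed the test: 2 of 38 members rose and 0 fell, against 0.782% of all genes higher and 0.457% lower. At an unadjusted p under 0.05 the counts were 9 higher and 1 lower (SEC62), and DESeq2 called 2 members. The calls were HSPA5 at 0.81 ± 0.11 (adjusted p = 0.000161) and HERPUD1 at 0.81 ± 0.14 (adjusted p = 0.00296). The count depended on the libraries in the fit: it was 7 with only the 25 µM and vehicle libraries of 24 h, and 5 without the 50 µM recovery group. The median over the members was 0.24 and over all genes 0.00, and 29 of the 38 differences were positive, against 49.3% of all genes. In 18 members (47.4%) no 25 µM library overlapped vehicle, against 22.9% of all genes. The comparisons of 25 µM and of 50 µM with vehicle share the vehicle libraries, and their difference is tested below as 50 against 25 µM.

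By class, the median difference at 25 µM was 0.31 for chaperones, 0.28 for disulfide genes, 0.32 for the sensors, 0.24 for ERAD and 0.08 for the translocon. In single libraries the median chaperone stood 0.35, 0.38 and 0.27 log2 units above the vehicle mean at 25 µM, and 0.66, 0.95 and 0.87 at 50 µM. For the translocon these medians were 0.11, -0.06 and 0.16 at 25 µM, and 0.68, 0.76 and 0.58 at 50 µM. The translocon median of the vehicle libraries themselves lay between -0.04 and 0.04, so the 25 µM libraries overlapped it and the 50 µM libraries did not.

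The doses were compared directly to ask which members differed between 50 and 25 µM. At 24 h, 10 of 38 members were higher at 50 than at 25 µM and 0 lower, against 3.79% of all genes higher and 3.62% lower (7.4% in all), and the unadjusted counts were 17 and 0. DESeq2 called 13 higher. The 10 were HSPA5, HSP90B1, DNAJB9, SDF2L1, PDIA5, ERO1B, HERPUD1, SYVN1, SSR1 and SSR3. The largest differences were 1.61 ± 0.21 for DNAJB9 (adjusted p = 5.05e-05), 1.41 ± 0.23 for SYVN1 (adjusted p = 0.000634) and 1.25 ± 0.35 for ERO1B (adjusted p = 0.0342). XBP1 stood at 0.00 ± 0.15 between the doses (adjusted p = 0.999). The HSP90B1, ERO1B and SSR3 calls held in 4 of 14, 7 of 13 and 7 of 14 alternatives, and the other 7 in all 14. Those 3 calls were lost when any replicate of 50 µM was left out, and with that any replicate of 25 µM for HSP90B1 and SSR3 and replicate 1 or 3 for ERO1B, with adjusted p up to 0.139, 0.124 and 0.163 in the order HSP90B1, ERO1B and SSR3.

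**Figure D3:**
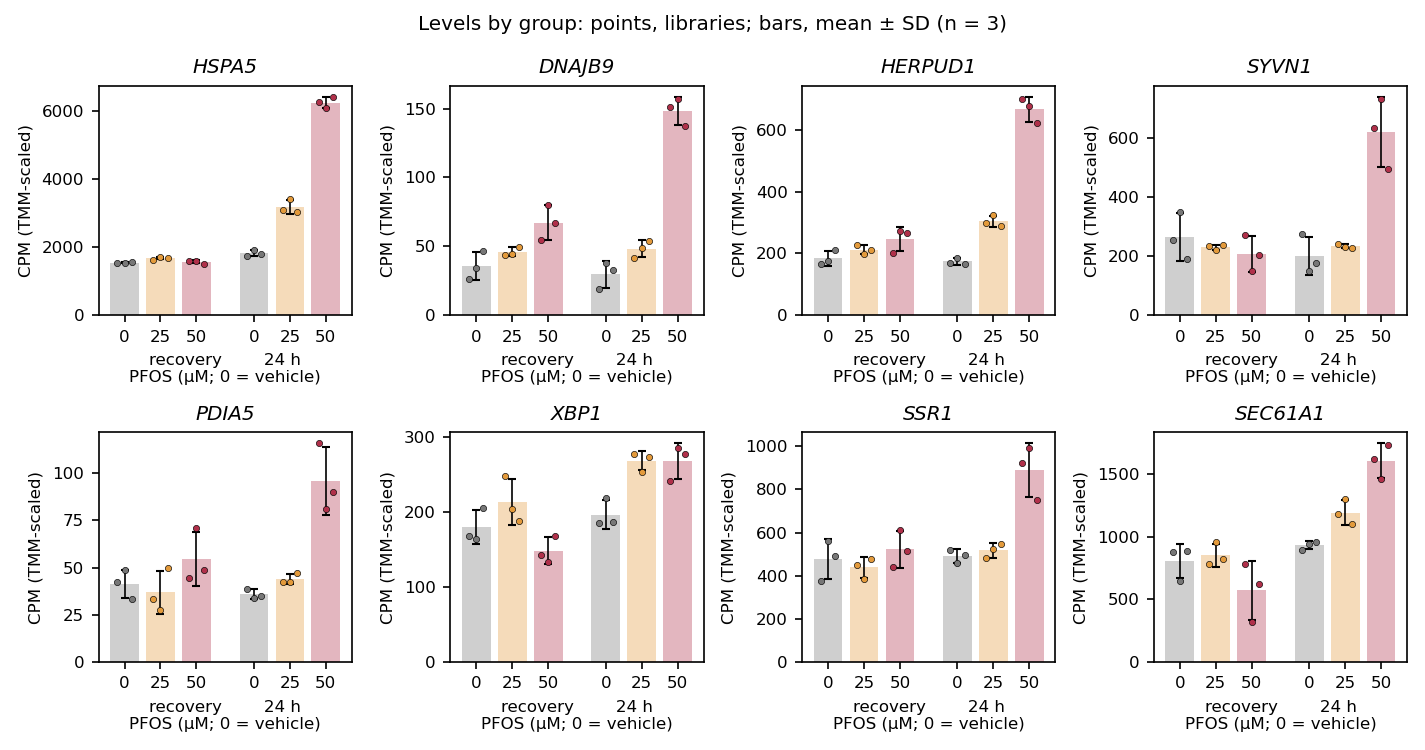
CPM of 8 members by group, with recovery groups on the left and 24 h groups on the right of each panel and dose rising within each; points are libraries and bars are means ± SD (n = 3). HSPA5 averages 6250.3 ± 165 CPM at 50 µM for 24 h and lies between 1512 and 1699 CPM in all recovery libraries, and in SYVN1, PDIA5 and SSR1 the 50 µM libraries of 24 h lie above all other libraries.

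Genes of related ER pathways outside the list were counted against the share over all genes, of which 9.18% rose and 9.59% fell at 50 µM for 24 h (18.8% in all). At 50 µM for 24 h, 8 of 11 tested genes of the ATF4 and CHOP branch rose, with a median of 1.80, led by TRIB3, a pseudokinase induced by CHOP, at 3.92 ± 0.26 (adjusted p = 1.9e-09). Of 24 other ERAD genes, 5 rose, led by DERL3, a relative of DERL1 and DERL2, at 2.59 ± 0.22 (adjusted p = 3.34e-08). Of 20 genes of the COPII coat and ER export, 7 rose, led by the cargo receptor LMAN1 at 0.79 ± 0.19 (adjusted p = 0.00481). Of 17 other chaperones and folding factors, 5 rose, led by the prolyl isomerase FKBP10 at 1.19 ± 0.28 (adjusted p = 0.00469).

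The calls in the remaining lists went in both directions or were few, and nothing particular to these lists is read from their counts. Of 14 other disulfide oxidoreductases, 2 rose and 2 fell, among them ERO1A, the close relative of ERO1B, at -0.83 ± 0.27 (adjusted p = 0.0344). Of 26 genes of the signal recognition particle, signal peptidase and other insertion routes, 3 rose, led by SEC11C at 1.47 ± 0.36 (adjusted p = 0.00696), and 2 fell. Of 19 genes of N-glycan transfer and trimming, 3 rose and 1 fell, and of 13 other regulators of the unfolded protein response, 1 rose, CREB3 at 0.59 ± 0.13 (adjusted p = 0.00359). At 25 µM the calls in these 8 lists were DERL3 at 1.42 ± 0.22 (adjusted p = 0.00117) and 6 genes of the ATF4 and CHOP branch, again led by TRIB3 at 2.60 ± 0.25 (adjusted p = 4.28e-06).

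After 24 h of recovery from 50 µM PFOS, HSPA5 and SYVN1 overlapped vehicle, DNAJB9, SDF2L1 and HERPUD1 were still higher, HYOU1 was lower, and the small translocon subunits SEC61B and SEC61G were higher. Of 38 members, 10 were higher and 2 lower, against 17.7% of all genes higher and 10.7% lower, so that the share of members called (31.6%) was near the 28.4% of all genes. The median was 0.11 over the members and -0.05 over all genes. The members took 1.18%, 1.00% and 1.07% of the counts after 50 µM and 1.19%, 1.07% and 1.25% in vehicle recovery libraries. With a trend over gene span removed, the split was 8 higher and 6 lower.

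HSPA5 was at 1604, 1595 and 1512 CPM after 50 µM PFOS, against 1539.6, 1535 and 1553 CPM in recovered vehicle cells, a difference of 0.03 ± 0.11 with overlapping groups (adjusted p = 0.881). DNAJB9 was at 54.6, 80.2 and 66.7 CPM after 50 µM PFOS, against 26.04, 34.3 and 46.7 CPM in recovered vehicle cells. It remained above vehicle without overlap, by 0.90 ± 0.23 (adjusted p = 0.0052). SDF2L1 was at 37.2, 39.2 and 55.6 CPM after 50 µM PFOS, against 20.7, 19.1 and 15.6 CPM in recovered vehicle cells, above vehicle in every library, by 1.24 ± 0.24 (adjusted p = 0.00066). HERPUD1 was at 201, 273 and 265 CPM after 50 µM PFOS, against 165, 176 and 211 CPM in recovered vehicle cells, with groups that overlapped and a difference of 0.42 ± 0.14 (adjusted p = 0.0318). SYVN1 was at 272, 150.3 and 204 CPM after 50 µM PFOS, against 256, 351 and 189.9 CPM in recovered vehicle cells, within the spread of vehicle, at -0.36 ± 0.24 (adjusted p = 0.276).

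The 2 members that were lower had been higher during exposure. HYOU1 was at 233, 112 and 208 CPM after 50 µM PFOS, against 345, 301 and 255 CPM in recovered vehicle cells, all below vehicle, a difference of -0.71 ± 0.19 (adjusted p = 0.0082). PDIA4 was at 379, 285 and 286 CPM after 50 µM PFOS, against 466, 436 and 431 CPM in recovered vehicle cells, again below vehicle in every library, at -0.49 ± 0.14 (adjusted p = 0.0105). CALR, at -0.35 ± 0.13, was below vehicle without overlap and CANX, at -0.37 ± 0.15, overlapped it, and neither passed (adjusted p = 0.0548 and 0.0685). MANF was at 18.6, 92.9 and 43.1 CPM after 50 µM PFOS, against 12.3, 18.3 and 14.2 CPM in recovered vehicle cells, all above vehicle but spread widely, by 1.78 ± 0.37 (adjusted p = 0.00112).

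In the translocon, both small subunits of the channel were higher and the pore was not. SEC61B (chr9:99222282-99230615) was at 75.6, 313 and 192 CPM after 50 µM PFOS, against 24.5, 39.05 and 28.8 CPM in recovered vehicle cells. SEC61G was at 30.2, 155 and 58.3 CPM after 50 µM PFOS, against 9.96, 12.6 and 19.7 CPM in recovered vehicle cells. Both were above vehicle in every library, by 2.62 ± 0.35 (adjusted p = 2.94e-05) and 2.54 ± 0.41 (adjusted p = 0.00014), and their 3 libraries differed widely. The pore SEC61A1 was at 781, 316 and 622 CPM after 50 µM PFOS, against 882, 645 and 886 CPM in recovered vehicle cells, overlapping vehicle, at -0.49 ± 0.21 (adjusted p = 0.0903).

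SSR4 was at 73.2, 148 and 93.1 CPM after 50 µM PFOS, against 28.3, 37.5 and 28.4 CPM in recovered vehicle cells. SSR2 was at 157, 374 and 265 CPM after 50 µM PFOS, against 98.8, 124 and 101 CPM in recovered vehicle cells. Both lay above vehicle without overlap, by 1.73 ± 0.23 (adjusted p = 3.24e-05) and 1.30 ± 0.21 (adjusted p = 0.000138). SSR3 was at 338, 589 and 433 CPM after 50 µM PFOS, against 254, 279 and 319.9 CPM in recovered vehicle cells, higher by 0.67 ± 0.18 (adjusted p = 0.00681), and SSR1, at 0.13 ± 0.16, did not pass (adjusted p = 0.568). DERL2 was at 93.00, 239.6 and 146 CPM after 50 µM PFOS, against 85.8, 92.2 and 87.9 CPM in recovered vehicle cells, higher by 0.86 ± 0.22 without overlap (adjusted p = 0.00616).

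**Figure D4:**
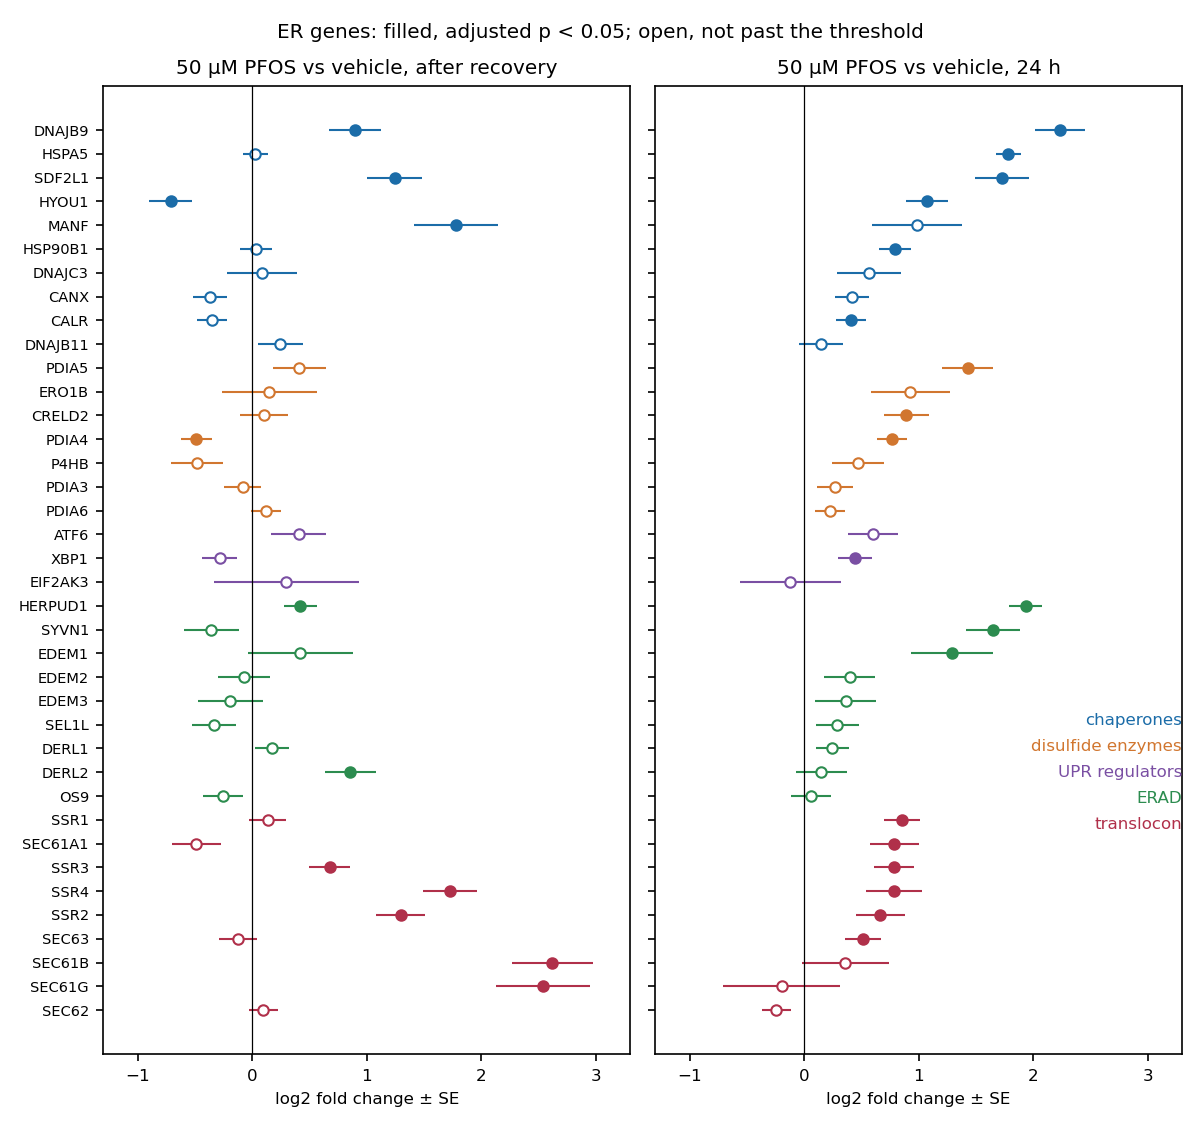
Log2 fold change ± SE of each tested member for 50 µM PFOS against vehicle after recovery (left) and at 24 h (right), grouped by class and ordered within class by the 24 h value; filled points passed the threshold. HSPA5 is at 0.03 after recovery and 1.78 at 24 h, and SEC61B is at 2.62 after recovery and 0.36 at 24 h.

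The 3 recovery libraries of 50 µM PFOS differed from each other in these values as well as in ribosomal protein share. Replicate 2, with the highest ribosomal protein share (7.58%), also had the highest level of SEC61B, SEC61G, MANF, SSR2 and SSR4 and the lowest of HYOU1, P4HB and SEC61A1. Of the 10 higher members, 9 were ordered across the 3 libraries as the ribosomal protein share was, SDF2L1 being the exception. Both lower members were in the opposite order. Among the 26 members not called, 5 were in the same order as the share, 6 in the opposite order and 15 in neither. The orders were not counted over all genes. The genes of the 10 higher members were short, spanning 1998 to 15565 bases with a median of 7646.5, against a median of 31770 over the 26 members not called. Over 9779 genes, Spearman's rho between span and fold change was -0.31 in this comparison and -0.17 for 50 µM at 24 h, given as a description of genes measured in the same libraries. Whether the ribosomal protein share or gene span accounts for these calls was not tested.

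With replicate 1, the library nearest to the others in ribosomal protein share, as the only library of its group, 2 members remained called, SEC61B and SSR4. It was then assumed to vary like the other groups. Without replicate 1 the count was 18, and without replicate 2 it was 8, with MANF, DERL2, SSR3 and HERPUD1 no longer called. Without vehicle recovery replicate 1, HYOU1 and PDIA4 lost their calls, and HERPUD1 held in 6 of 14 alternatives, losing its call without vehicle recovery replicate 1 or 2 or 50 µM recovery replicate 2 or 3. With the span trend removed, DNAJB9, SDF2L1 and HERPUD1 lost their calls and HSPA5 was called lower, at -0.34 (adjusted p = 0.0453).

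**Figure D5:**
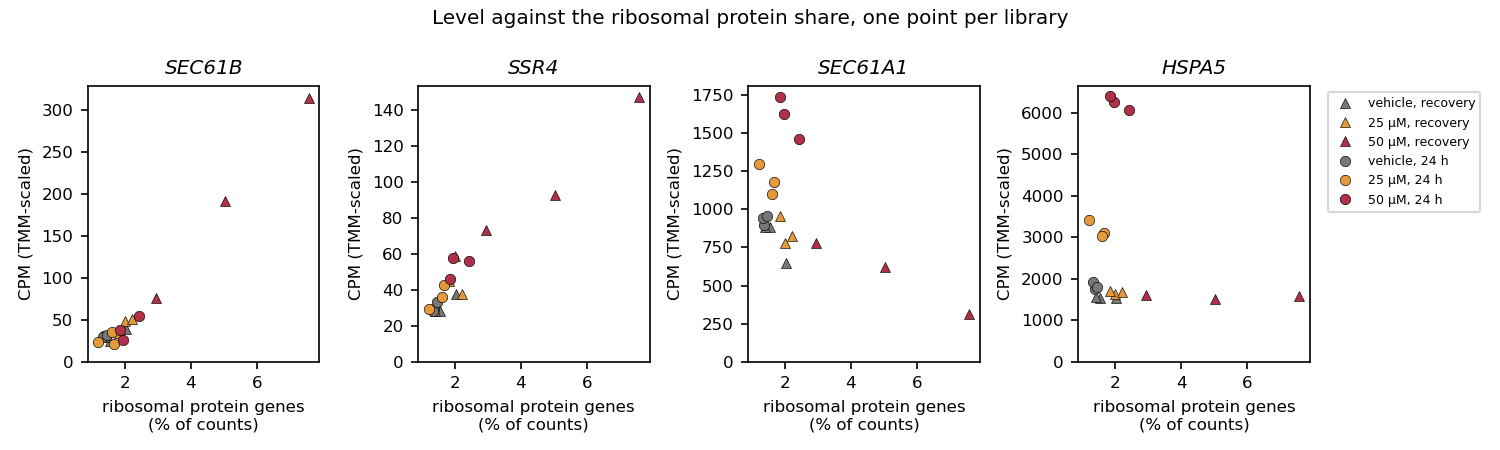
CPM of SEC61B, SSR4, SEC61A1 and HSPA5 against the share of counts from 86 ribosomal protein genes, 1 point per library (triangles, recovery; circles, 24 h; colour, dose). SEC61B and SSR4 are highest and SEC61A1 lowest in the recovery library of 50 µM PFOS with the 7.58% share, and HSPA5 is high only in 24 h libraries exposed to PFOS.

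After recovery from 25 µM PFOS, 0 of 38 members passed the test, as did 0 of all genes (0%). At an unadjusted p under 0.05 only SSR4 passed, DESeq2 called 0 members, and the lowest adjusted p was 0.691. SSR4 was at 28.3, 37.5 and 28.4 CPM in vehicle recovery libraries, 58.7, 44.7 and 37.8 CPM after 25 µM and 73.2, 148 and 93.1 CPM after 50 µM, above vehicle without overlap after 25 µM by 0.53 ± 0.24. HSPA5 was at 1636, 1699 and 1670.3 CPM after 25 µM, against 1539.6, 1535 and 1553 CPM in vehicle recovery libraries, a separated difference of 0.11 ± 0.11 that did not pass (adjusted p = 0.884). HERPUD1 was at 226, 197 and 212 CPM after 25 µM, against 165, 176 and 211 CPM in vehicle recovery libraries, with overlap. The members' median was 0.02, and 5 of 38 (13.2%) did not overlap vehicle, against 13.8% of all genes.

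Between the doses after recovery, 8 members were higher after 50 than after 25 µM and 1 lower, against 14.7% and 7.38% of all genes. The 8 were SDF2L1, MANF, DERL2, SEC61B, SEC61G, SSR2, SSR3 and SSR4, and the 1 was XBP1, at 143, 133 and 168 CPM after 50 µM, against 248, 205 and 188 CPM after 25 µM (-0.52 ± 0.15, adjusted p = 0.0186). The share called (23.7%) was close to that of all genes (22.1%). Ribosomal protein shares were 2.94% to 7.58% after 50 µM and 1.84% to 2.21% after 25 µM, and their part was not tested. With the span trend removed, 7 were higher and 5 lower. With only these libraries in the fit, or with replicate 1 alone after 50 µM, 0 members passed, and the count was 18 without that replicate and 4 without replicate 2 of 25 µM. XBP1 lost its call without replicate 1 or 2 of 25 µM or replicate 2 of 50 µM.

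Whether the effect of 50 µM PFOS differed between recovery and 24 h was tested as the difference of the 2 effects, each against its own vehicle. It passed for 16 of 38 members (42.1%), with 14 lower after recovery and 2 higher, against 7.42% of all genes lower and 11.6% higher. The 14 were HSPA5, HSP90B1, HYOU1, DNAJB9, CALR and CANX among the chaperones, PDIA4, PDIA5 and P4HB, XBP1, the ERAD genes HERPUD1 and SYVN1, and SEC61A1 and SSR1. The largest were SYVN1 at -2.01 ± 0.33 (adjusted p = 0.000607), HYOU1 at -1.79 ± 0.27 (adjusted p = 0.000211) and HSPA5 at -1.76 ± 0.15 (adjusted p = 4.97e-07). The 2 higher ones were SEC61G at 2.74 ± 0.65 (adjusted p = 0.00754) and SEC61B at 2.26 ± 0.51 (adjusted p = 0.0059). By class, the median difference was -0.76 for chaperones, -0.79 for disulfide genes, -0.55 for ERAD and 0.34 for the translocon, against 0.02 over all genes. These differences include the recovery libraries with raised ribosomal protein shares, whose part was not tested. With replicate 1 as the only recovery library of 50 µM, 11 members passed, all of them lower after recovery and 10 of them among the 14, and SEC61B and SEC61G did not. The calls of HSPA5, HYOU1, PDIA4, HERPUD1, SYVN1 and SEC61A1 held in all 20 alternatives, and those of P4HB, PDIA5 and SSR1 in 10, 11 and 12 of 20, each lost when any of several single libraries of either time was left out.

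For 25 µM PFOS the same difference passed for 0 members, against 0.0203% of all genes. At an unadjusted p under 0.05, 6 members were lower after recovery (HSPA5, HSP90B1, HYOU1, PDIA4, HERPUD1 and SEL1L), and DESeq2 called 1, HSPA5. In the edgeR test, HSPA5 differed by -0.70 ± 0.15 (adjusted p = 0.114).

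The vehicle groups were compared to see how far these genes moved over the recovery period, which also brought a change of medium. Between vehicle after recovery and vehicle at 24 h, 0 of 38 members passed, against 0.975% of all genes (0.64% lower). The unadjusted count was 3, all lower after recovery (HSPA5, ATF6 and EIF2AK3), and DESeq2 called 0. Outside the list, 3 of 11 genes of the ATF4 and CHOP branch were higher in vehicle after recovery and 0 lower. The median of that branch was 0.54, and 0.335% of all genes were higher. EIF2AK3, at 3.06, 4.19 and 3.204 CPM after recovery and 17.6, 12.3 and 5.59 CPM at 24 h, did not overlap (-1.51 ± 0.46, adjusted p = 0.14), and it passed with no filter on low counts (adjusted p = 0.0300).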

How the data were processed

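The labels' protocols give TRIzol extraction and Smart-seq2 libraries from poly(A) RNA, sequenced in pairs. The authors deposited 1 table of whole-number read counts per gene symbol for 18 libraries. Per the submitters' processing notes, the series was processed with Trimmomatic, STAR, DESeq2 and MACS2 on GRCh38 (hg38). No label or header names the counting tool, the annotation or the strand setting. Where genes overlap or lie antisense to each other, their reads cannot be told apart, and HSP90B1 has processed pseudogene copies that may share reads.

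From the counts, edgeR 4.0.16 (R 4.3.3) was run with TMM scaling, filterByExpr at a minimum count of 10 (9847 genes kept, 99.2% of counts) and 1 mean per group over all 18 libraries. The quasi-likelihood test was adjusted by the Benjamini-Hochberg method over all genes tested. Errors of log2 fold changes are SE, and CPM uses TMM library sizes, except for the cell type markers, which use total counts. The filter removed 1 member, ERN1, and no tested member passed it through 1 group alone. The median biological coefficient of variation was 17.2%, and replicates of a group differed by more than sampling noise in every pair (chi-square over degrees of freedom 1.29 to 21.4). Alternatives were RLE scaling, DESeq2 1.42.0, no filter, a replicate block, thinned counts, fewer libraries and each library left out. Removal of a gene span trend, fitted by loess in R and entered as an offset in edgeR, was also used. A fit without the 50 µM recovery group and a fit with its replicate 1 alone were chosen after seeing the data. The test was checked on simulated counts. The motif search used RefSeq promoters matched by symbol.

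The members, the marker lists and the pathway lists were chosen with earlier results of these data known. Levels in every library are given mostly for the members of each class with the largest changes at the higher dose for 24 h. Some members called in other comparisons were added. These members were thus picked by their results, and the group separations shown for them are not an unselected sample of the list. Genes outside the list are named when they passed the test with the largest change of their list.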

Additional observations from a re-analysis of the deposited data

Results flagged for a closer look

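The effect of 50 µM PFOS after recovery minus its effect at 24 h passed the test of the difference itself in 16 members (edgeR, adjusted over all genes). On the log2 scale it was -1.76 for HSPA5, -0.76 for HSP90B1, -1.79 for HYOU1, -1.33 for DNAJB9, -0.76 for CALR and -0.79 for CANX among the chaperones. It was -1.25 for PDIA4, -1.02 for PDIA5 and -0.95 for P4HB among the disulfide genes, and -0.73 for XBP1. It was -1.51 for HERPUD1 and -2.01 for SYVN1 in ERAD, and -1.28 for SEC61A1 and -0.72 for SSR1 in the translocon. It was positive for SEC61B, at 2.26, and SEC61G, at 2.74. The 3 recovery libraries of 50 µM PFOS held ribosomal protein shares of 2.94%, 7.58% and 5.03%, and the part of that difference in these values was not tested. With the library of 2.94% alone, SEC61B and SEC61G did not pass and 10 of the 14 lower members did.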

How the results depend on the processing

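The numbers of members called changed by over 1.5 times in these settings. With only the compared groups' libraries in the fit, 7 members were called at 25 µM for 24 h, 5 at 50 µM after recovery, 18 between the doses at 24 h, 0 between them after recovery, and 1 and 10 for the recovery minus 24 h effects of 25 and 50 µM. Without the 50 µM recovery group, the counts were 5 at 25 µM for 24 h, 18 between the doses at 24 h and 1 for the 25 µM effect difference, which was also 1 in DESeq2. With replicate 1 as the only 50 µM recovery library, 2 were called after recovery from 50 µM and 0 between the doses. With no filter, 1 was called between vehicle groups.

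Leaving out each library in turn gave 2 to 2 calls at 25 µM for 24 h, 13 to 18 at 50 µM for 24 h, 0 to 0 after recovery from 25 µM and 8 to 18 after recovery from 50 µM. Between the doses it gave 7 to 8 at 24 h and 4 to 18 after recovery. For the effect differences it gave 0 to 0 at 25 µM and 12 to 22 at 50 µM, and between vehicle groups 0 to 0. HSPA5 changed direction after recovery from 50 µM with the span trend removed, to -0.34, and DERL2 between the doses after recovery with replicate 1 alone, to -0.0893. The construction of these fits changes the libraries or genes used, and the cause of each change was otherwise not tested.

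Same-numbered libraries were not shown to be pairs: correlations of their deviations ran from -0.338 to 0.394, and 2 of 18 libraries correlated best with their own number. With a replicate block the calls were 2, 17, 0 and 12 at 25 µM for 24 h, 50 µM for 24 h, 25 µM recovery and 50 µM recovery. They were 8 and 10 between the doses at 24 h and after recovery, 0 and 16 for the effect differences at 25 and 50 µM, and 0 between vehicle groups. The smallest library held 582233 counts, which limits low members such as ERN1, EIF2AK3, ERO1B and EDEM1.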

Other observations

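Genes of neighbouring ER pathways were also compared after recovery from 50 µM PFOS. Of 26 genes of the signal recognition particle, signal peptidase and other insertion routes, 12 were higher and 2 lower, with a median of 0.59, led by the signal peptidase subunit SEC11C at 2.05 ± 0.35 (adjusted p = 0.000194) and by TRAM2 at -1.04 ± 0.18 (adjusted p = 0.000213) among the lower. Of 20 genes of the COPII coat and ER export, 2 were higher and 7 lower, with a median of -0.26, the coat scaffold SEC16A lying lowest at -1.09 ± 0.30 (adjusted p = 0.0105). Of 19 genes of N-glycan transfer and trimming, 5 were higher, led by OST4, a small oligosaccharyltransferase subunit, at 2.98 ± 0.40 (adjusted p = 2.91e-05), and 4 lower, led by the glucosidase II subunit PRKCSH at -0.84 ± 0.31 (adjusted p = 0.0494). Over all genes, 17.7% were higher and 10.7% lower in this comparison.

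Of 17 other chaperones, 5 were higher and 3 lower, with FKBP2 at 2.73 ± 0.40 (adjusted p = 5.8e-05) and FKBP10 at -0.97 ± 0.33 (adjusted p = 0.0316), a gene that was higher at 24 h. Of 14 other disulfide oxidoreductases, 5 were higher and 1 lower, and of 24 other ERAD genes 5 were higher and 3 lower. Of 11 genes of the ATF4 and CHOP branch, 2 were higher and 0 lower, but the median was -0.05. The higher ones were led by DDIT3, which encodes CHOP, at 1.86 ± 0.24 (adjusted p = 2.72e-05). Between the doses after recovery, 1 of the 11 was higher after 50 than after 25 µM and 5 were lower. The median there was -0.75, and 14.7% of all genes were higher and 7.38% lower. These values rest on the same 3 libraries with raised ribosomal protein shares, whose part was not tested. After recovery from 25 µM, 0 genes of these 8 lists passed.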
